A study of Mus musculus with 12 samples.

Results

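The mitochondrial ribosomal protein genes are the nuclear genes for the proteins of the ribosome inside mitochondria. Every gene symbol of the array platform that reads Mrpl or Mrps, then a number and at most 1 letter, was taken as a member, using probe sets assigned to exactly 1 gene and the brightest probe set of each gene. The choice used no difference between groups. It gave 77 members of 19938 genes, 48 Mrpl genes named for the large subunit and 29 Mrps genes named for the small subunit. Mrpl53 was the only matching symbol present solely on a probe set shared with another gene, and it was not analysed here.

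Colon RNA of 12 male wild-type C57BL/6 mice was hybridised to Affymetrix mouse Gene ST arrays. Each mouse had an array of its own, and the 4 groups held 3 mice apiece. All mice were 7 weeks old at the start of the protocol and were sacrificed on day 10. The DSS group drank 4% dextran sulfate sodium (DSS), a polymer that injures the colon epithelium and causes colitis, for 6 days and then water for 4 days. The DSS+L-Arg group had the same 6 days of DSS and then 1% L-arginine (L-Arg) in the drinking water for 4 days. Without DSS, the control+L-Arg group had water for 6 days and then L-Arg for 4 days, and the control group had water throughout. No group carried a transgene or a deletion, and each array held RNA of whole colon pieces, in which fewer cells of a type and less RNA per cell cannot be told apart.

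The mitochondrial ribosome translates the few messenger RNAs of the mitochondrial genome, which encode core subunits of the respiratory chain and the ATP synthase. All of its proteins are made in the cytosol from nuclear genes and imported, and they assemble on ribosomal RNA made inside the organelle. The colon epithelium draws much of its energy from mitochondrial oxidation of butyrate, so its cells depend on this translation system. In the systematic names of ribosomal proteins, a leading u or b marks a protein with a bacterial homologue and a leading m a protein particular to mitochondria. By these names 46 members were counted as having a bacterial homologue and 30 as mitochondrion-specific. The 30 include Mrps18a (mL66) and Mrps18b (mS40), although these are paralogues of bacterial S18.

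The symbols and the structure of the ribosome do not match in every case. Mrps30 (mL65) and Mrps18a (mL66) are small-subunit symbols of proteins that sit in the large subunit. Mrps36 has no systematic name, since its protein is a component of the 2-oxoglutarate dehydrogenase complex and not of the ribosome. By structure the members comprised 50 large-subunit and 26 small-subunit genes.

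Promoters of the members carried motifs of factors known for nuclear-encoded mitochondrial genes. RefSeq promoter windows of build GRCm38.p6, running from 250 bases before the transcription start to 50 bases after it, were found for 68 of the 77 members and gave 74 windows. Both strands were searched. The ETS core motif CCGGAAG, bound by the NRF2/GABP factor, was present in 25 of the 74 windows (33.8%) against 8.86% of all 32851 windows. The NRF1 motif GCGCATGCG was present in 7 member windows (9.46%) against 1.75%, and the YY1 motif AAGATGGCG in 8 (10.8%) against 1.4%. The letters AAG end the ETS motif and begin the YY1 motif, so these can overlap, and an NRF1 match can overlap its own reverse complement. The ERR motif TCAAGGTCA was in none of the 74 windows and in 0.423% of all windows, and the E-box CACGTG was in 7 (9.46%) against 7.15%. Member windows were also richer in GC, with a median of 58.5% against 52.7%, and in CpG, with a median of 21 against 7 per window.

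The upstream 250 bases of 4 members are shown 5′ to 3′ on the strand of the gene, with motif matches in capitals. Mrpl14 (chr17:45686099-45686348, plus strand) and Mrps6 (chr16:92058086-92058335, plus strand) are shown because they were the members that passed the test in DSS versus control, and neither window held any of the motifs. Mrpl32 (chr13:14613038-14613287, minus strand) is shown because it had the lowest p in DSS+L-Arg versus control, with NRF1 matches starting at positions -87, -86 and -23 from the start, of which the first pair overlap. Mrpl34 (chr8:71464676-71464925, plus strand) is shown for the commonest motif, with 1 ETS match at position -37.
Mrpl14: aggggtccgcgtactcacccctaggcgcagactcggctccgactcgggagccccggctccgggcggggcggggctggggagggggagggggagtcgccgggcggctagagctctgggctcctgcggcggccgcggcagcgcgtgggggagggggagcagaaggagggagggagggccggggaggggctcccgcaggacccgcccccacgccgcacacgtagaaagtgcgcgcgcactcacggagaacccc
Mrps6: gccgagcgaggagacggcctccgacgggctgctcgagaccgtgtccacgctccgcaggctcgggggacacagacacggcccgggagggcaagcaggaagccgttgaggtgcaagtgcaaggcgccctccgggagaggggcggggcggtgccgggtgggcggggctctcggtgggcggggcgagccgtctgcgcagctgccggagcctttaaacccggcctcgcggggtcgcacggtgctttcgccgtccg
Mrpl32: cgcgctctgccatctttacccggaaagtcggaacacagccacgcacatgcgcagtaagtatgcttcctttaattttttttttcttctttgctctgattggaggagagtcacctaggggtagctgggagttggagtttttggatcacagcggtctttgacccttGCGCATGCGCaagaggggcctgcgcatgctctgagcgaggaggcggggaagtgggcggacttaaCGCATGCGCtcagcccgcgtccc
Mrpl34: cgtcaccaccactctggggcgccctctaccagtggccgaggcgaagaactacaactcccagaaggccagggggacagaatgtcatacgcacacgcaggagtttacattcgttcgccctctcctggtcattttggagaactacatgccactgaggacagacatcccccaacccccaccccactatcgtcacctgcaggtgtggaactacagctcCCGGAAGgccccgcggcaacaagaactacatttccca

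In DSS versus control, the question was which member transcripts differed in the inflamed colon. Mrpl14 and Mrps6 passed the test as lower with DSS, a share of the members near that of all genes. No member passed as higher, and the members as a whole lay slightly below control. All values are log2 signals, and a member was called when its Benjamini-Hochberg adjusted p from limma over all 19938 genes was under 0.05. The 2 members called lower were 1 of 48 large-subunit and 1 of 29 small-subunit genes. They made up 2.6% of the members, near the 2.23% of all genes called lower. No member was called higher, against 1.8% of all genes, while at an unadjusted p under 0.05 there were 2 members higher and 17 lower.

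Mrpl14 (uL14m) encodes a protein at the face where the large subunit meets the small one, and the assembly factor MALSU1 binds it. The log2 signal of Mrpl14 was 9.73, 9.60 and 9.68 in the control mice and 9.13, 9.05 and 9.09 in the DSS mice. In DSS+L-Arg it was 9.62, 9.67 and 9.53, and in control+L-Arg it was 9.32, 9.58 and 9.16. The DSS mice were close to each other and below every mouse of the other groups, and the DSS+L-Arg mice lay at the level of control. Mrpl14 was 0.58 ± 0.11 (SE) lower on the log2 scale in DSS than in control (1.5-fold, n = 3 per group, limma adjusted p = 0.0134).

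Mrps6 (bS6m) encodes a protein of the small-subunit platform. Its log2 signal was 10.88, 10.59 and 10.78 in control and 10.10, 9.93 and 10.43 in DSS. It was 10.76, 10.64 and 10.45 in DSS+L-Arg and 10.57, 10.62 and 10.33 in control+L-Arg. The DSS mice did not overlap with the control or DSS+L-Arg mice, although DSS mouse 3 lay above the lowest control+L-Arg mouse. Mrps6 fell by 0.60 ± 0.14 (SE) on the log2 scale (1.51-fold, limma adjusted p = 0.0408). It was the only member past an unadjusted p under 0.01 together with a fold over 1.5, a rule that 2.47% of all genes met in the lower direction.

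The calls depended on single mice. Without control mouse 1 or without control mouse 3 no member was called lower, against 0.677% and 0.436% of all genes. Without control mouse 2, control+L-Arg mouse 1, DSS mouse 1, DSS mouse 2, DSS+L-Arg mouse 2 or DSS+L-Arg mouse 3 only Mrpl14 was called, a count of 1. In those settings 1.13% to 3.74% of all genes were called lower. Without DSS mouse 3 the count was 8, comprising Mrpl38, Mrps6, Mrpl1, Mrps15, Mrpl14, Mrps14, Mrpl21 and Mrps17, against 2.11% of all genes called lower. Over all 21 alternative settings the adjusted p of Mrpl14 ran from 0.0067 to 0.116 and that of Mrps6 from 0.0177 to 0.167, and the Mrps6 call was lost in 12 of them. These settings included Significance Analysis of Microarrays (SAM), in which no gene could be called, as explained below.

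**Figure D1:**
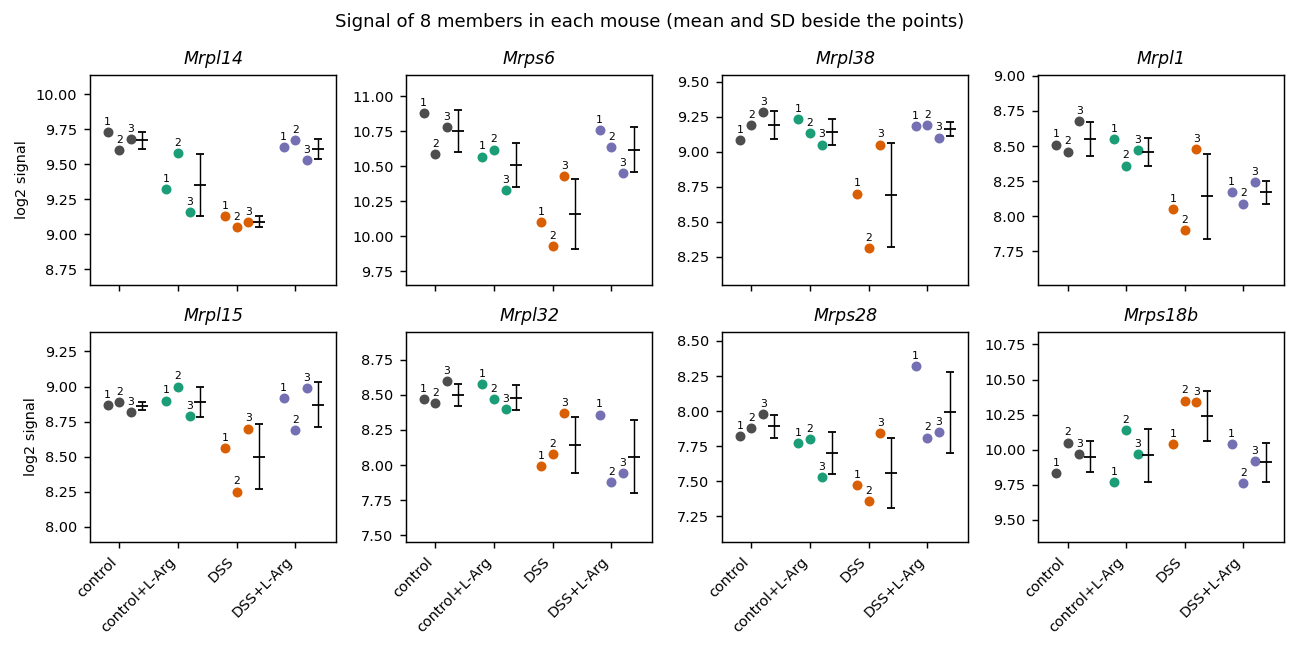
Log2 signal (vertical axes) of 8 members in each of the 12 mice, by group, with mouse numbers above the points and the group mean and SD (n = 3) as bars beside them. The Mrpl14 points of the DSS mice lie between 9.05 and 9.13, below all other mice, while for Mrpl38 and Mrpl1 DSS mouse 3 lies near control.

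Further members had a lower mean in DSS without passing the test, and in most of those described next DSS mice 1 and 2 were low and DSS mouse 3 was nearer to control. The 17 members lower at an unadjusted p under 0.05 made up 22.1% of the members, against 11.6% of all genes, and comprised 11 large-subunit and 6 small-subunit genes. Mrps18b and Mrps34 were the only members higher at that p, against 7.96% of all genes. The count of 17 became 4 without DSS mouse 2, 9 without DSS mouse 1, 8 without control mouse 3, 11 without control mouse 2 and 40 without DSS mouse 3. The share of all genes at that p without each mouse is not given here, so these shifts cannot be set against the background.

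Mrpl38 (mL38), a mitochondrion-specific protein of the central protuberance, had signals of 9.08, 9.19 and 9.28 in control and 8.70, 8.31 and 9.05 in DSS. All DSS values were below the control values, and the difference was -0.50 ± 0.15 (SE, limma adjusted p = 0.0873). Mrpl1 (uL1m), the protein of the mobile L1 stalk next to the tRNA exit site, had 8.51, 8.46 and 8.68 in control and 8.05, 7.90 and 8.48 in DSS. Here DSS mouse 3 overlapped with control, and the difference of -0.41 ± 0.14 had an adjusted p of 0.121. Mrpl15 (uL15m), a core protein shared with bacteria, had 8.87, 8.89 and 8.82 in control and 8.56, 8.25 and 8.70 in DSS, which did not overlap (-0.36 ± 0.12, adjusted p = 0.128).

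Mrpl34 (bL34m), a small basic protein of the large subunit, had a mean of 11.08 ± 0.09 (SD, n = 3) in control and 10.71, 10.38 and 10.96 in DSS. Mrpl32 (bL32m), whose precursor is processed by the m-AAA protease, had 8.47, 8.44 and 8.60 in control and 7.99, 8.08 and 8.37 in DSS. Neither gene overlapped between the groups, with differences of -0.40 ± 0.14 for Mrpl34 and -0.36 ± 0.14 for Mrpl32 and adjusted p of 0.148 and 0.17. Mrpl49 (mL49), a mitochondrion-specific protein, had 9.69, 9.75 and 9.75 in control and 9.39, 8.72 and 9.68 in DSS (-0.47 ± 0.19, adjusted p = 0.205). DSS mouse 2 was the lowest in Mrpl49 and DSS mouse 3 lay just below control. The remaining 4 large-subunit members lower at an unadjusted p under 0.05 were Mrpl47 (uL29m) at -0.38 ± 0.17, Mrpl51 (mL51) at -0.36 ± 0.15, Mrpl58, a peptidyl-tRNA hydrolase built into the ribosome, at -0.30 ± 0.12 and Mrpl10 (uL10m), at the base of the factor-binding stalk, at -0.20 ± 0.09, with adjusted p from 0.184 to 0.253.

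Among the small-subunit genes, Mrps15 (uS15m), a primary binder of the small ribosomal RNA, had 10.47, 10.50 and 10.58 in control and 10.11, 9.96 and 10.50 in DSS (-0.32 ± 0.12, adjusted p = 0.162). Mrps14 (uS14m), a protein of the head, had 7.68, 7.84 and 7.84 in control and 7.34, 7.37 and 7.75 in DSS (-0.30 ± 0.12, adjusted p = 0.179). Mrps21 (bS21m) had 11.86, 11.85 and 12.19 in control and 11.39, 11.23 and 11.88 in DSS (-0.47 ± 0.18, adjusted p = 0.179). In these 3 genes DSS mouse 3 was within the control range. Mrps24 (uS3m), which lines the channel where messenger RNA enters, had 9.99, 9.87 and 9.93 in control and 9.60, 9.58 and 9.82 in DSS. The DSS values of Mrps24 did not overlap with control (-0.26 ± 0.10, adjusted p = 0.174).

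Mrps36, the 2-oxoglutarate dehydrogenase component, had signals of 7.51, 7.58 and 7.63 in control and 7.24, 6.76 and 7.20 in DSS. DSS mouse 3 was as low as DSS mouse 1, and the difference was -0.50 ± 0.16 (adjusted p = 0.105). In DSS+L-Arg, Mrps36 was 7.31, 7.03 and 7.28, also below every control mouse.

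The Mrps18 genes are 3 mammalian paralogues of bacterial S18 that occupy different places in the ribosome. Mrps18b (mS40) had 9.83, 10.05 and 9.97 in control, 10.04, 10.35 and 10.34 in DSS and 10.04, 9.76 and 9.92 in DSS+L-Arg. DSS mice 2 and 3 were above every control mouse and DSS mouse 1 was within their range, with a difference of 0.30 ± 0.13 and an adjusted p of 0.223. Mrps18a (mL66) had a difference of -0.19 ± 0.12 between DSS and control (adjusted p = 0.395) and Mrps18c (bS18m) one of 0.03 ± 0.10 (adjusted p = 0.931). The sign for Mrps18c turned to -0.03 with array weights and to between -0.06 and 0.09 on leaving out single mice. Probes of paralogues can share sequence, which was not examined here.

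Mrps34 (mS34), which is needed for stability of the small subunit, was the only member whose DSS mice all lay above the control mice, with 7.97, 7.98 and 7.81 in control and 8.19, 8.22 and 8.04 in DSS (0.23 ± 0.10, adjusted p = 0.252). The 15 members whose DSS mice all lay below control compared with 14.3% of all genes, and the 1 whose DSS mice all lay above compared with 10.7%. As shares of the members these were 19.5% and 1.3%. Beside Mrps18b and Mrps34, the highest differences within each subunit were those of Mrpl20 (bL20m) at 0.14 ± 0.13, Mrpl30 (uL30m) at 0.12 ± 0.10, Mrpl54 (mL54) at 0.11 ± 0.18 and Mrps9 (uS9m) at 0.08 ± 0.09, with adjusted p between 0.572 and 0.797. Mrpl54 turned to -0.03 with array weights.

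Over all 77 members the median difference between DSS and control was -0.16 on the log2 scale, with quartiles of -0.28 and -0.03 and a range from -0.60 to 0.30. The median over all genes was -0.01. The group mean was lower in DSS for 61 members (79.2%) against 53.1% of all genes. The large subunit had a median of -0.14 with 37 of 48 lower, and the small subunit a median of -0.19 with 24 of 29 lower. Grouped by structure the medians were -0.14 and -0.20.

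The large and small subunits moved alike in each mouse. The mean difference of the members from the control mean was -0.16 ± 0.17 (SD, n = 3) in DSS, -0.07 ± 0.05 in DSS+L-Arg and -0.06 ± 0.09 in control+L-Arg, with an SD of 0.03 in control. The large-subunit mean minus the small-subunit mean was 0.02 ± 0.02 in DSS, 0.03 ± 0.03 in control+L-Arg and within 0.04 of 0 in every DSS+L-Arg mouse. In no group was the distance between the subunits larger than the spread of the subunits between mice.

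The members with a bacterial homologue and the mitochondrion-specific members, both by systematic name, were also close, with medians of -0.17 (36 of 46 lower) and -0.13 (24 of 30 lower). The 16 small-subunit members with a bacterial homologue had a median of -0.21 with 14 lower, the 10 mitochondrion-specific ones of that subunit a median of -0.12 with 7 lower. Split by promoter motif, members with an ETS match had a median of -0.18 and those without -0.16. For NRF1 both medians were -0.16. All 8 members with a YY1 match had a lower mean in DSS, with a median of -0.25 against -0.13 for the 60 without. These splits are descriptions of small sets and were not tested.

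**Figure D2:**
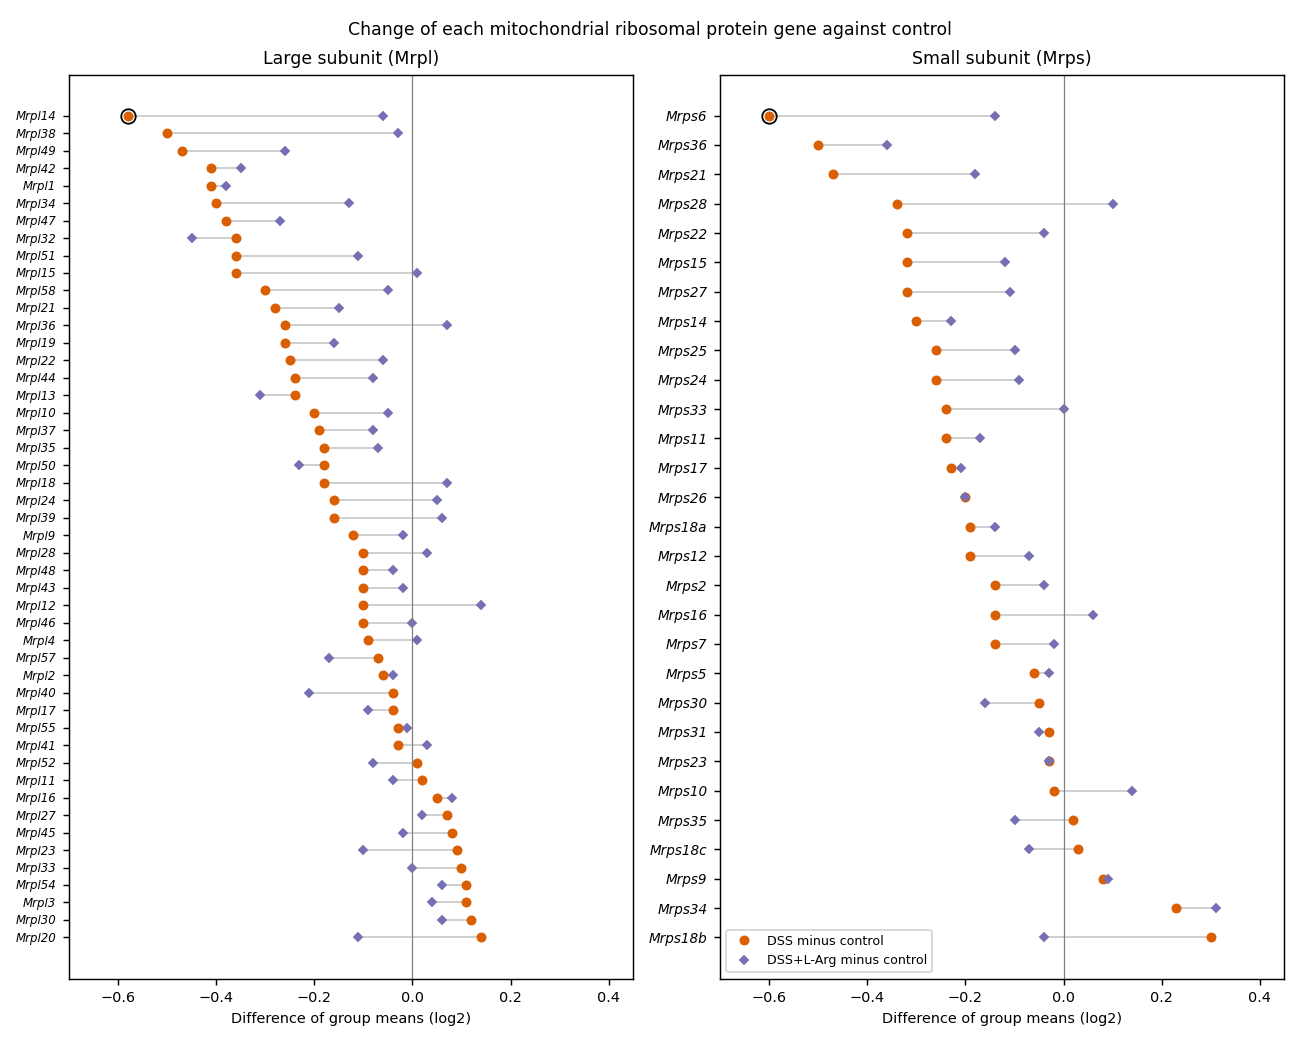
Difference of group means from control on the log2 scale (horizontal axis) for each of the 48 Mrpl and 29 Mrps genes, for DSS (circles) and DSS+L-Arg (diamonds), both against the same 3 control mice. Rings mark Mrpl14 and Mrps6, which passed an adjusted p under 0.05, and 61 of the 77 circles lie below 0.

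By mouse, the median member stood at -0.23 in DSS mouse 1, -0.28 in DSS mouse 2 and 0.03 in DSS mouse 3 relative to the control mean. In DSS mouse 1 there were 70 of 77 members (90.9%) below the control mean, in DSS mouse 2 there were 58 (75.3%) and in DSS mouse 3 there were 33 (42.9%). Over all genes the shares were 51.9%, 51.8% and 54.8%. The control mice ran from -0.02 to 0.03, the control+L-Arg mice from -0.15 to 0.03 and the DSS+L-Arg mice from -0.10 to -0.02. The DSS group was therefore the most variable, with a median SD per member of 0.20, against 0.08 in control, 0.11 in control+L-Arg and 0.10 in DSS+L-Arg. Over all genes the median SD was 0.15 in DSS and 0.10 in control. Without DSS mouse 3 the median difference of the members from control was -0.24, and without DSS mouse 2 it was -0.09.

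Marker genes of other processes also differed among the DSS mice. The 18 colon epithelium markers were all above 5.89, the 30th percentile used as the threshold for dim genes, and their median change was between -0.10 and 0.08 in every mouse. In DSS versus control 10 of them had a lower mean and 8 a higher one, from -0.79 to 0.25, with none called. Their mean change in DSS mouse 1 was -0.23, against 0.07 and 0.02 in DSS mice 2 and 3. The 10 markers of cycling cells, such as Mki67 and Top2a, had median changes of 0.08, -1.01 and 0.84 in DSS mice 1, 2 and 3, and between -0.26 and 0.45 in the other mice. Of these 10, none was called and 6 had a lower mean in DSS, with a summed linear signal of 3780 to 11600 in DSS and 6480 to 7690 in control. The part of proliferation in the member levels was not tested.

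Most neutrophil and monocyte markers rose with DSS, and smooth muscle markers had lower means. The 10 neutrophil markers had a higher mean in DSS, 8 of them called, with a summed linear signal of 6470 to 19100 against 531 to 1100 in control and 827 to 1180 in DSS+L-Arg. The neutrophil median change was 3.32, 2.37 and 4.81 in DSS mice 1, 2 and 3. Of the 11 monocyte and macrophage markers 8 were called higher, with sums of 4690 to 10000 in DSS against 1710 to 2050 in control. The 10 smooth muscle markers all had a lower mean in DSS with none called, with sums of 6130 to 8920 against 12000 to 25700 in control. DSS mouse 3, whose members were at the control level, had the highest neutrophil and the lowest smooth muscle level of the DSS mice. It also had the lowest level of endothelium markers, with median changes of 0.66, 0.61 and 0.04 in DSS mice 1, 2 and 3, and of fibroblast markers, with 1.16, 0.41 and 0.18. Of 7 endothelium markers all had a higher mean in DSS with none called, with sums of 794 to 1510 against 613 to 770 in control. Of 7 fibroblast markers 2 were called higher, with sums of 3950 to 6930 against 2400 to 2740. The part of these cell types in the member levels was not tested.

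**Figure D3:**
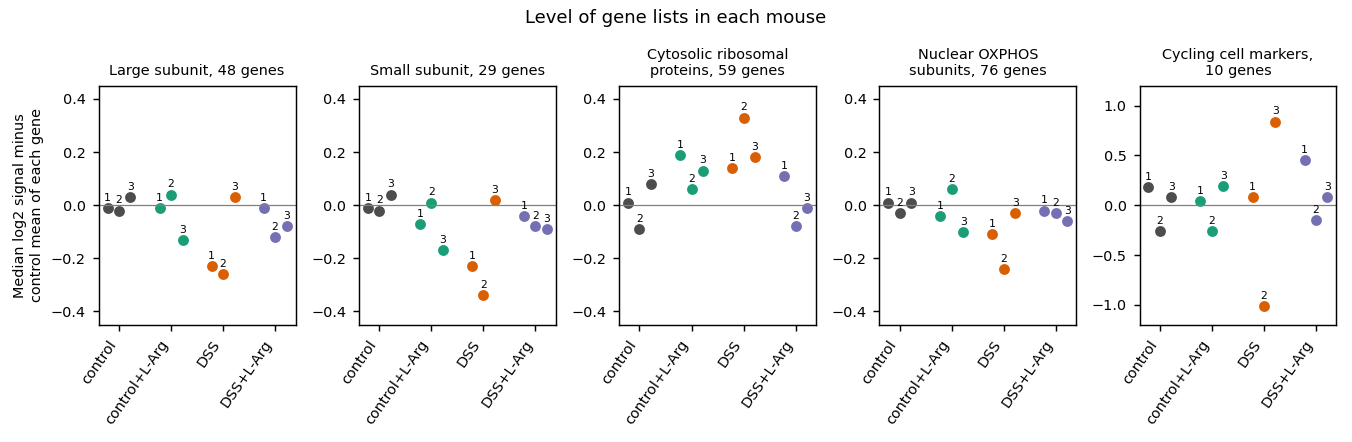
Median log2 signal minus the control mean of each gene (vertical axes, the last panel on a wider scale) for 5 gene lists in each of the 12 mice, numbered by mouse within its group. Both subunits lie low in DSS mice 1 and 2 and near 0 in DSS mouse 3, and cytosolic ribosomal proteins lie above 0 in all DSS mice.

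The other genes of mitochondrial translation were mostly lower in DSS by mean. The 4 ribosomal proteins with other symbols (Dap3, Ptcd3, Chchd1 and Gadd45gip1) were all lower by mean with a median of -0.16, and none passed the test. Of 28 assembly factors none was called and 9 were lower at an unadjusted p under 0.05, with a median of -0.19. All 15 translation factors were lower by mean with a median of -0.25, and Mrrf, the ribosome recycling factor, fell by 0.55 ± 0.13 (SE, limma adjusted p = 0.0371). Of the 21 mitochondrial aminoacyl-tRNA synthetases and related genes 19 were lower by mean, with a median of -0.28, and Wars2, which charges the mitochondrial tryptophan tRNA, fell by 0.66 ± 0.11 (adjusted p = 0.00848). Neither list had a gene called higher.

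Of 13 regulators of mitochondrial biogenesis 1 was called, Ppargc1b, a coactivator of nuclear-encoded mitochondrial genes, which fell by 0.65 ± 0.14 (adjusted p = 0.0264), and the list had a median of -0.10. Of 76 nuclear subunits of oxidative phosphorylation 67 were lower by mean, with a median of -0.14, 3 called lower and none higher. The complex I genes Ndufa2 and Ndufa1 fell by 0.92 ± 0.18 (adjusted p = 0.0188) and 0.58 ± 0.14 (adjusted p = 0.0396). Cox7a1, the isoform of a cytochrome c oxidase subunit typical of muscle, fell by 2.02 ± 0.28 (adjusted p = 0.00408), beside the lower mean of all 10 smooth muscle markers.

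The cytosolic ribosomal proteins, which build the ribosome outside mitochondria, had the opposite sign. Of 59 measured, 58 had a higher mean in DSS, with a median of 0.22 and 29 higher at an unadjusted p under 0.05. Rps12 rose by 0.66 ± 0.14 (adjusted p = 0.0241) and Rps18 by 0.44 ± 0.09 (adjusted p = 0.0192), and none was called lower. With arrays centred on their medians 58 of 59 stayed higher by mean and with a further quantile normalization 57, while 58 and 56 members were lower by mean. The cytosolic list was above the control mean in all 3 DSS mice, with medians of 0.14, 0.33 and 0.18, without the gap seen in the members between DSS mouse 3 and the others. It was also above the control mean in all 3 control+L-Arg mice, at 0.19, 0.06 and 0.13, where 57 of 59 genes had a higher mean with a median of 0.12 and none was called. Many cytosolic ribosomal protein genes have processed pseudogenes of near-identical sequence, so their signals can be mixed.

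**Figure D4:**
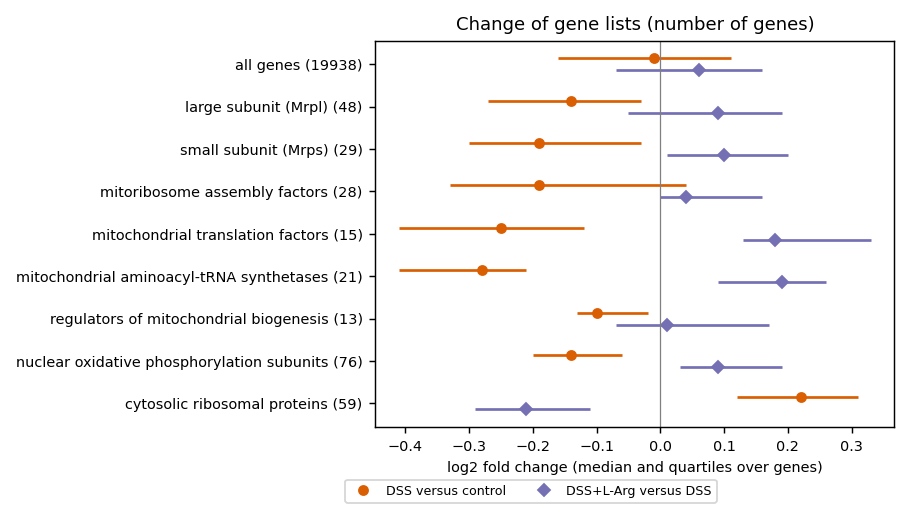
Median (points) and quartiles (lines) of the log2 fold change over the genes of each list, for DSS versus control (circles) and DSS+L-Arg versus DSS (diamonds), which share the same DSS mice, with the number of genes in parentheses. Mitochondrial translation lists have medians from -0.28 to -0.14 in DSS versus control, and cytosolic ribosomal proteins 0.22.

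In DSS+L-Arg versus DSS, the question was whether member transcripts differed when mice with DSS received L-Arg. None of the 77 members was called by limma in either direction, against 0.115% of all genes called higher and 0.522% called lower. At an unadjusted p under 0.05 there were 6 members higher (7.8%, against 7.99% of all genes) and 1 lower (1.3%, against 5.53%). SAM, the test named in the methods of the experiment, had 4 members at an unadjusted p under 0.05. As run here, its null values pooled every split of the mice, with the observed split and its mirror included. With 3 mice per group no gene could therefore reach an adjusted p under 0.05. The absence of SAM calls was fixed in advance in every comparison and says nothing about the members. The share of all genes at an unadjusted p under 0.05 by SAM is not given here. The group mean was higher in DSS+L-Arg for 54 members (70.1%) against 62.8% of all genes. The median difference was 0.09 for the large subunit and 0.10 for the small subunit, against 0.06 over all genes. Both shares of higher members were near the background. Leaving out single mice moved the large-subunit median between -0.01 and 0.16 and the small-subunit median between 0.02 and 0.20. Without DSS mouse 2 the median over members was 0.01 with 41 of 77 higher by mean, and without DSS mouse 3 it was 0.17 with 64 higher by mean and 26 higher at an unadjusted p under 0.05. The median over all genes was 0.05 in both settings, and the share of all genes behind the count of 26 is not given here.

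This comparison shares the DSS mice with DSS versus control, so the values are given side by side. Mrpl14 was 0.52 ± 0.11 (SE) above DSS in DSS+L-Arg, with no overlap (limma adjusted p = 0.0575), after a difference of -0.58 between DSS and control. The adjusted p of this Mrpl14 difference ran from 0.0241 to 0.206 over the alternatives, and it was under 0.05 without control+L-Arg mouse 2 and without control+L-Arg mouse 3. Mrps6 was 0.46 ± 0.14 above DSS, with no overlap (adjusted p = 0.206). Mrpl38 had 9.18, 9.19 and 9.10 in DSS+L-Arg, all above the DSS mice, with a difference of 0.47 ± 0.15 (adjusted p = 0.213), and it was the 1 member called without DSS mouse 3.

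The remaining 3 members higher at an unadjusted p under 0.05 overlapped with DSS in at least 1 mouse. Mrpl15 had 8.92, 8.69 and 8.99 in DSS+L-Arg against 8.56, 8.25 and 8.70 in DSS (0.36 ± 0.12, adjusted p = 0.237). Mrps28 (bS1m), a small-subunit protein, had 8.32, 7.81 and 7.85 against 7.47, 7.36 and 7.84 (0.44 ± 0.16, adjusted p = 0.26). Mrpl39 (mL39), a mitochondrion-specific protein related to threonyl-tRNA synthetase, had 10.34, 10.21 and 10.22 against 9.95, 9.92 and 10.25 (0.22 ± 0.10, adjusted p = 0.349). Mrpl24 (uL24m), a core protein of the large subunit, did not overlap between the groups at 9.90, 9.75 and 9.78 against 9.69, 9.68 and 9.43, with a difference of 0.21 ± 0.10 (adjusted p = 0.375).

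Mrps18b was the 1 member lower at an unadjusted p under 0.05, by -0.34 ± 0.13 (adjusted p = 0.287). Mrpl1 and Mrpl32 were as low in DSS+L-Arg as in DSS, with 8.17, 8.09 and 8.24 for Mrpl1 and 8.36, 7.88 and 7.94 for Mrpl32. Their differences from DSS were 0.02 ± 0.14 and -0.09 ± 0.14. The cytosolic ribosomal proteins had a median of -0.21 in this comparison, with 54 of 59 lower by mean and none called.

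In DSS+L-Arg versus control no member was called, against 0.0652% of all genes, and 5 (6.5%) were at an unadjusted p under 0.05, against 12.6% of all genes. By SAM, which could call no gene, 11 were at an unadjusted p under 0.05. The 5 were Mrpl32 at -0.45 ± 0.14 (limma adjusted p = 0.243), Mrpl1 at -0.38 ± 0.14, Mrps36 at -0.36 ± 0.16, Mrpl13 (uL13m), a core large-subunit protein, at -0.31 ± 0.12, and Mrps34 at 0.31 ± 0.10. For all 5 the DSS+L-Arg mice did not overlap with the control mice. Lack of overlap was common in this comparison, with 15 of 77 members apart below control and 3 above, against 1932 and 2697 of the 19938 genes. The median over members was -0.05 and that over all genes 0.03, and 57 of 77 members were lower by mean, against 43.8% of all genes. The count of lower members depended on the scaling. With arrays centred on their medians 38 members were lower and their median was 0.0, but the median over all genes also rose, to 0.08. With a further quantile normalization 45 members were lower, with medians of -0.01 over members and 0.02 over all genes. The share of all genes lower by mean is not given here for these settings.

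In control+L-Arg versus control, which asks what L-Arg did without DSS, no member was called and none of all genes was (0.0%), with every member at an adjusted p of 0.999. At an unadjusted p under 0.05 there were 3 members (3.9%), against 3.44% of all genes, all lower and without overlap. At any p, 8 of 77 members were apart below control and 2 above, against 1338 and 729 of the 19938 genes. By SAM, which could call no gene, 5 were at an unadjusted p under 0.05. Mrpl14 was at -0.32 ± 0.11, Mrpl17 (bL17m), a core large-subunit protein, at -0.27 ± 0.10 with 8.61, 8.64 and 8.60 against a control mean of 8.88 ± 0.10 (SD, n = 3) whose lowest mouse was at 8.81, and Mrps12 (uS12m), a protein of the decoding centre, at -0.25 ± 0.10 with 7.13, 7.25 and 7.06 against 7.53, 7.41 and 7.26. With mice paired by replicate number in a fit of these 2 groups, none was called and 4 were at an unadjusted p under 0.05. In control+L-Arg mouse 3 there were 64 of 77 members (83.1%) below the control mean, against 51.1% of all genes. This was the most outside the DSS group and more than the 58 of DSS mouse 2.

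In DSS+L-Arg versus control+L-Arg no member was called, against 0.306% of all genes, and 6 (7.8%) were at an unadjusted p under 0.05, against 15.6%. By SAM, which could call no gene, 6 were also at that p. Those lower were Mrpl32 at -0.43 ± 0.14 (limma adjusted p = 0.185), Mrps36 at -0.40 ± 0.16, Mrpl23 (uL23m), a protein at the exit of the peptide tunnel, at -0.30 ± 0.12, and Mrpl50 (mL50), a mitochondrion-specific protein, at -0.27 ± 0.11. Those higher were Mrpl14 at 0.25 ± 0.11 and Mrps34 at 0.24 ± 0.10.

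The difference between the L-Arg effects with and without DSS was tested as an interaction. No member was called, against 0.0752% of all genes, and 9 (11.7%) were at an unadjusted p under 0.05, against 10.8% of all genes, 8 of them positive. Mrpl14 had the lowest p, with an L-Arg effect 0.83 ± 0.15 higher on the log2 scale with DSS than without (limma adjusted p = 0.0679), since it was lower with L-Arg alone and higher with L-Arg after DSS. It was under 0.05 without control+L-Arg mouse 2, and its adjusted p ran from 0.0125 to 0.236 over the alternatives. Mrps6 followed with 0.71 ± 0.20 (adjusted p = 0.242) and Mrps28 with 0.64 ± 0.22 (adjusted p = 0.342), while Mrpl23 was the negative one with -0.39 ± 0.17.

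Across the 12 mice the members varied together. The mean pairwise Pearson correlation of members was 0.30, and 0.34 for deviations from group means, against 0.02 over all genes, with all points sharing the same arrays. It was 0.28 within the large subunit and 0.31 within the small subunit. Related lists lay on both sides of 0.30. Higher were oxidative phosphorylation subunits (0.33), the ribosomal proteins with other symbols (0.35), aminoacyl-tRNA synthetases (0.36), translation factors (0.52) and cytosolic ribosomal proteins (0.53). Lower were assembly factors (0.18) and regulators of mitochondrial biogenesis (0.11). For deviations from group means, oxidative phosphorylation subunits (0.31) and synthetases (0.26) were also below the members, while translation factors (0.42) and cytosolic ribosomal proteins (0.43) stayed above. Mrps7, Mrps27 and Mrpl35 followed the mean of the other members most closely, with r of 0.93, 0.92 and 0.92. Mrps34 (r = -0.38), Mrps16 (-0.18) and Mrps18b (-0.16) did so least, and Mrps34 and Mrps18b were also the 2 members higher in DSS at an unadjusted p under 0.05.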

How the data were processed

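RNA of colon tissue from 12 mice, 3 per group by the labels, was measured on 12 arrays. The deposited values are log2 signals per probe set, which the authors made with Affymetrix Expression Console 1.1 and RMA (background correction, quantile normalization over arrays and summarization). Their processing notes name build mm9. Quantile normalization hides a change common to all genes. Of 35556 probe sets, 21789 had 1 gene in the platform annotation and gave 19938 genes by the brightest probe set, and all 77 members matched an Entrez identifier of the RefSeq table. The probe-set median ran from 6.49 to 6.64 over arrays. Arrays have no read depth, and the 3 mice per group limit the precision.

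limma 3.58.1 in R 4.3.3 was fitted to all 12 arrays with 1 mean per group, with Benjamini-Hochberg adjustment over all genes at 0.05, and the code was checked on simulated data. The members and gene lists were chosen with earlier results of these data known. Members named in the text were those with the lowest p or the most extreme differences per comparison, the Mrps18 genes, and every member of a count of 5 or fewer; Mrps7, Mrps27, Mrpl35 and Mrps16 were named after their correlations were seen. Control with control+L-Arg was the only pair of groups in which all 3 same-numbered pairs of mice had deviations correlated above 0.1 (0.205, 0.477 and 0.261). At least 95.1% of genes differed by over 0.01 between any 2 arrays of a group, so no array was a copy. Alternatives were fits of only the groups compared, a replicate block, centring, quantile normalization, a filter on dim genes (5.89 in 3 arrays, 14510 genes), the mean of probe sets, another prior, array weights, SAM and leaving out each mouse. A replicate block for control and control+L-Arg alone was added after seeing the data.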

Additional observations from a re-analysis of the deposited data

How the results depend on the processing

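Of 366 recomputed differences of the named members, apart from leaving out mice, 356 kept their direction and their side of the threshold. With leaving out mice included, 827 of 858 did so. Only Mrpl14 and Mrps6 in DSS versus control were called in the main fit, so the other differences had no call to lose. Over all 21 alternatives the Mrpl14 call was lost in 3 and the Mrps6 call in 12, SAM being among them for both genes. The members called lower in DSS versus control numbered 1 with only the groups compared, against 0.311% of all genes. They numbered 1 with the replicate block, against 2.15%, and 1 with arrays centred on their medians, against 1.84%. With array weights there were 4 (Mrpl14, Mrps6, Mrpl38 and Mrpl1), against 2.55%. SAM as run here could call no gene, so the loss of calls there was fixed in advance. By SAM 10 members were lower at an unadjusted p under 0.05, and the share of all genes at that p is not given here. Without single mice the count of members called lower in DSS versus control ran from 0 to 8. The members called higher in DSS+L-Arg versus DSS ran from 0 to 1, and those called higher for the difference of the L-Arg effects from 0 to 1. Array weights gave 1 for the latter, Mrpl14. Mrpl54 and Mrps18c in DSS versus control turned to -0.03 with array weights, and ran from -0.06 to 0.28 and from -0.06 to 0.09 over the alternatives. Median changes of both subunits in DSS versus control stayed negative in every alternative. The L-Arg comparison among DSS mice was less stable, and omitting 1 mouse took the large-subunit median from 0.09 to between -0.01 and 0.16 and the small-subunit median from 0.10 to between 0.02 and 0.20. The labels state no pairing of mice between groups. Control and control+L-Arg were paired by replicate number because of the correlations given above, and the block there changed no call. The causes of these changes were not tested.

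The counts rest on 3 mice per group, and leaving out DSS mouse 3 moved the count of members called lower the most, from 2 to 8. The share of all genes called lower was 2.23% with that mouse and 2.11% without it. The array reports relative signals, so absolute amounts of mitochondrial ribosomes were not measured, and protein was not measured.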

Other observations

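The probe sets of a member did not always give the same change. Of the 8 members with 2 probe sets, Mrpl51 (mL51), a mitochondrion-specific large-subunit protein, differed most. Its brightest probe set, used in the report, was at -0.36 in DSS versus control and at 0.25 in DSS+L-Arg versus DSS, while the mean of its probe sets was at -0.64 and 0.47. Mrpl47 (uL29m), a large-subunit protein with a bacterial homologue, was at -0.38 by its brightest probe set and at -0.25 by the mean in DSS versus control. Neither gene was called by either measure.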
